A study of Homo sapiens with 18 samples.

Results

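The 4 ribosome profiling libraries of the UFSP2-KO line, of 18 libraries in the series, were compared between fractions: membrane libraries a and b against cytosol libraries a and b. They were chosen by their titles. HEK293 is a human embryonic kidney cell line, and UFSP2-KO is 1 clonal HEK293 line made with Cas9, so the effect of the knockout cannot be told apart from other traits of the clone. Cells of every line grew in DMEM with serum. Digitonin lysis gave the cytosolic fraction, and Triton-X lysis of the leftover pellet gave the membrane fraction. Footprints are the messenger RNA stretches that ribosomes shield from RNase I. The same fractions of unedited HEK293 cells (WT, 4 libraries) and of a clonal UFM1-KO line (4 libraries) are given beside them, as are the 2 whole-cell mRNA libraries of UFSP2-KO. The labels do not say that libraries a and b came from separate cultures, and the p-values measure only the spread between these libraries.

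UFM1 is a small ubiquitin-like protein that cells attach to other proteins, and RPL26, part of the large ribosomal subunit, is one that receives it. UFSP2 is a protease that takes UFM1 off again. Ribosomes that make secreted and membrane proteins are carried to the endoplasmic reticulum (ER) by the signal recognition particle and dock on its translocon, whereas most other proteins are made on ribosomes free in the cytosol. Digitonin opens the plasma membrane and releases the cytosol, while the ER and other organelles stay in the pellet.

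Counts were deposited per Ensembl transcript. Entries with identical counts in all 12 footprint libraries were merged into 1 feature, named by its first transcript, and 11065 features had enough counts to be tested. No table used here pairs these transcript IDs with gene names, so known ER and cytosolic genes were not looked up, the fractions were not checked against their marker genes, and the loss of UFSP2 was not checked in the counts. For the same reason no promoter sequence is shown. Features are described below by their ratio, their coding length, their level and their mRNA. Isoforms of a gene share reads, so features are not independent and their numbers are not numbers of genes. Total counts were 2874937 and 4232842 for UFSP2-KO membrane libraries a and b, and 1587853 and 5383754 for cytosol libraries a and b.

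2 populations of transcripts made up the UFSP2-KO footprints: a large one with nearly equal normalised levels in both fractions, and a smaller one far higher in the membrane fraction. Among the 7797 features that averaged 10 CPM or more over the 12 libraries (CPM are counts relative to a library total, after the TMM scaling that balances libraries), 5467 had a log2 ratio of membrane over cytosol between -1 and 1. A ratio of 4 to 7 was found for 1012 features and a ratio over 7 for 302. Few lay between the populations: 190 had a log2 ratio of 1 to 2, 98 of 2 to 3 and 149 of 3 to 4. On the lower side 549 features were between -2 and -1, and 30 were under -2. The fractions were scaled to their own totals, so a ratio compares a transcript's place within each fraction, not the number of ribosomes in it.

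**Figure D1:**
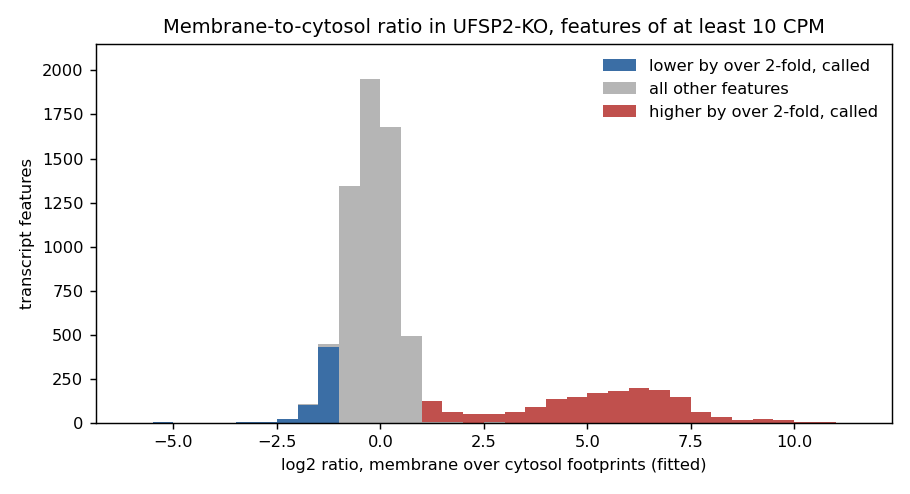
Histogram of the fitted log2 ratio of membrane over cytosol footprints in UFSP2-KO (x axis, steps of 0.5) for the 7797 features of at least 10 CPM (y axis, number of features). Red marks features called higher by over 2-fold, blue those called lower by over 2-fold and grey all others; the red features form a separate hill, with 1012 of all features between log2 4 and 7.

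With the quasi-likelihood test of edgeR and Benjamini-Hochberg adjustment (adjusted p under 0.05, two-sided), 2741 features (24.8% of those tested) were higher at the membrane and 1345 (12.2%) were lower. The higher side was mostly a matter of large ratios: 2502 features (22.6%) were higher by over 2-fold, 2256 of them by over 4-fold, and only 239 were called higher by 2-fold or less. The lower side was one of small ratios: 699 features (6.32%) were lower by over 2-fold, with a median log2 ratio of -1.29, and 646 were called lower by 2-fold or less. Of the 699, 690 lay below 0 in all 4 pairings of a membrane with a cytosol library, as 2500 of the 2502 lay above 0. The calls came from these same libraries, so this agreement is no separate support. Of the 6979 features not called, 3117 lay on the same side of 0 in all 4 pairings. The number of lower calls was less steady than that of higher calls. It was 892 without membrane library a, 728 without membrane library b, 760 by DESeq2 and 2116 with scaling to library size only. The higher calls under these settings numbered 2660, 2487, 2580 and 2561. Accordingly 67.1% of calls were higher with TMM, 77.2% by DESeq2 and 54.8% with library size only, a scaling under which the median log2 ratio over all features was -0.18 in place of 0.012.

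The 2502 features higher by over 2-fold had a median ratio of 37.2-fold, which rests on few cytosol counts. Their median count was 69 and 101 in membrane libraries a and b, and 2 and 4 in cytosol libraries a and b. In 261 of them both cytosol libraries held 0 counts, and in 1961 the cytosol sum was under 20. With the 261 set to the lower bound that 3 counts over both cytosol libraries would give, the median log2 ratio was 4.76 in place of 5.22. The 541 with a cytosol sum of at least 20, which favours smaller ratios, had a median of 6.88-fold. Beyond the 2-fold threshold the ratio itself was therefore coarse for most of these features. Its direction was the same in nearly all library pairings, which a call made on these libraries favours. The spread between libraries shows the same limit. The robust SD of the log2 difference between libraries a and b was 0.92 for cytosol features of up to 10 counts on average and 0.26 for those over 1000, and in the membrane fraction it fell from 0.84 to 0.19.

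Features were named by size of ratio among called features with at least 20 counts in the lower fraction and no overlap of fractions. The highest at the membrane were ENST00000316403.13 and ENST00000333511.6. ENST00000316403.13, a feature of 3 identical entries with 429 codons, had 3760 and 4070 CPM in membrane libraries a and b and 13.3 and 7.34 CPM in cytosol libraries a and b. Its cytosol counts were 15 and 25, and the fitted log2 ratio was 8.73 (SE 0.36, edgeR adjusted p = 4.58e-16). Its ratio was 8.06 (SE 0.38) in WT and 8.48 (SE 0.41) in UFM1-KO. ENST00000333511.6, with 365 codons, had 5050 and 4830 CPM at the membrane, while its cytosol libraries held 25.7 and 7.64 CPM. The cytosol libraries differed from each other far more than the membrane libraries did. Its log2 ratio was 8.5 (SE 0.43, edgeR adjusted p = 3.32e-15), beside 8.52 in WT and 8.3 in UFM1-KO.

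The lowest at the membrane by the same rule were short coding sequences, ENST00000306024.3 with 82 codons and ENST00000370659.1 with 88. ENST00000306024.3 had 10.2 and 9.94 CPM at the membrane against 41.7 and 56.1 CPM in the cytosol. Its log2 ratio was -2.31 (SE 0.29, edgeR adjusted p = 1.71e-07), and it was -1.44 (SE 0.24) in WT and -1.01 (SE 0.25) in UFM1-KO. ENST00000370659.1 had 32.4 and 19.9 CPM at the membrane, below its cytosol values of 106 and 134 CPM, with a log2 ratio of -2.25 (SE 0.31, edgeR adjusted p = 8.71e-07). The change of this ratio against WT, -0.87 (SE 0.39) for ENST00000306024.3 and -0.71 (SE 0.42) for ENST00000370659.1, was not called for either feature (edgeR adjusted p = 1 for both).

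Features lower at the membrane had short coding sequences. Length is the deposited value, which carries no header and was read as codons left after a fixed trim. It lies below 0 for 110 entries, so it cannot be the full coding length of every entry. The 699 features lower by over 2-fold had a median length of 163 codons (quartiles 105 and 263.5), against 498 codons (319 and 764) for features not called and 479 codons (307 and 798.75) for those higher by over 2-fold. The 239 features called higher by 2-fold or less were the longest, with a median of 1150 codons. Of 423 features of up to 100 codons, 162 (38.3%) were lower by over 2-fold, and of 1339 features of 101 to 200 codons 285 (21.3%) were, beside 6.32% of all features. Among the 1151 features of 751 to 1000 codons it was 6 (0.521%), and among the 615 over 1500 codons it was 1. Features higher by over 2-fold showed less of a trend over most of the range, from 23.6% at 201 to 300 codons to 21.6% at 1001 to 1500. They were fewest at up to 100 codons (47 of 423, 11.1%) and most frequent over 2500 codons (76 of 167, 45.5%).

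To view the trend apart from the strongly enriched transcripts, the 2535 features (22.9% of those tested) that were over 2-fold higher at the membrane in WT were set aside. This WT membrane class was chosen on WT libraries, although the filter, scaling and spread came from the model of all 12. Among the 8530 remaining features the median log2 ratio in UFSP2-KO rose with each step of length. It was -1 at up to 100 codons, -0.76 at 101 to 200, -0.56 at 201 to 300, -0.28 at 301 to 500, -0.02 at 501 to 750, 0.08 at 751 to 1000, 0.21 at 1001 to 1500, 0.36 at 1501 to 2500 and 0.5 over 2500. The shift moved the bulk of each length group: the upper quartile at up to 100 codons, -0.6, lay below the lower quartile at 501 to 750 codons, -0.35. At up to 100 codons 217 of 372 (58.3%) were called lower and 4 higher. Over 2500 codons 1 of 87 was called lower and 28 (32.2%) higher.

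**Figure D2:**
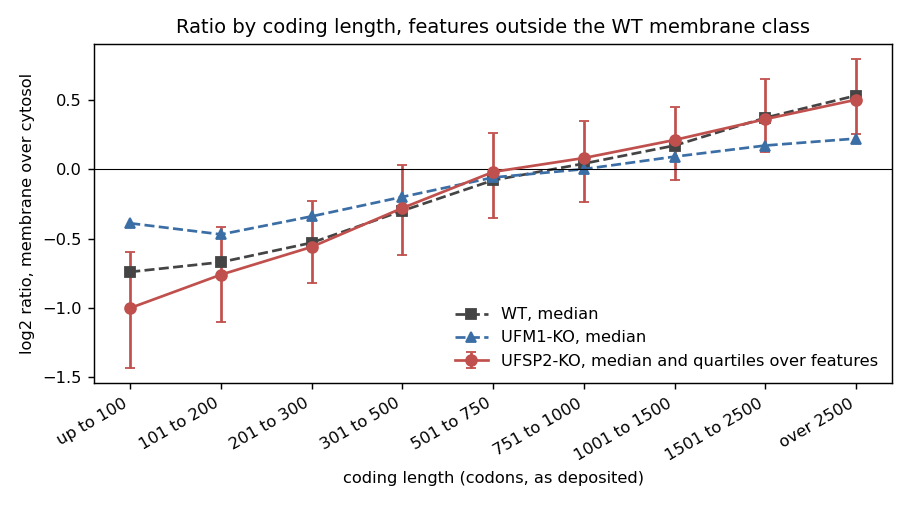
Median log2 ratio of membrane over cytosol footprints (y axis) by coding length in codons (x axis, 9 length groups) for the 8530 features outside the WT membrane class. Red circles are UFSP2-KO with bars for the quartiles over features, grey squares the WT medians and blue triangles the UFM1-KO medians; the UFSP2-KO median goes from -1 in the shortest group to 0.5 in the longest.

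The length trend did not rest on 1 library. The median log2 ratio of features over 1500 codons less that of features of up to 200 codons, again outside the WT membrane class, was 1.1 for membrane a over cytosol a, 1.28 for membrane b over cytosol b, and 1.22 and 1.17 for the crossed pairings. A common scaling factor cancels in this gap, so the choice of normalization hardly moves it. Within each library, the same gap taken over log2 CPM was 1.04 and 1.13 in the UFSP2-KO membrane libraries and -0.07 and -0.1 in its cytosol libraries, with no overlap. The exact two-sided permutation p was 0.33, the smallest that 2 libraries against 2 allow. In all 3 lines each membrane library lay above both cytosol libraries of its line, with a mean difference of 0.88. The exact two-sided permutation p within lines was 0.00926, the smallest that the 216 regroupings allow. The gap was chosen after these libraries were seen, and the features set aside were picked on the WT libraries. Both permutation p-values are therefore only descriptive. The WT gap of the fitted log2 ratio was 1.07 and the UFM1-KO gap 0.63, against 1.2 in UFSP2-KO. Over the 4 pairings the gap ranged from 0.51 to 0.78 in UFM1-KO and from 0.78 to 1.18 in WT, so that UFSP2-KO lay above UFM1-KO and overlapped WT. High ratios were set aside by their WT values alone, so the lines are not on equal terms in this set. The difference between lines was not tested.

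Footprint level per codon is mean CPM divided by length, so level and length are related by construction. A feature also had to pass a count filter that takes no account of length. Outside the WT membrane class, 1546 features of up to 300 codons lay in the highest tertile of level and 241 in the lowest. The trend was therefore also read within tertiles, a split chosen after seeing the data. In the highest tertile, the 1546 features of up to 300 codons had a median log2 ratio of -0.74, and the 422 features over 600 codons had 0.22. In the middle tertile it was -0.62 and 0.16, and in the lowest tertile -0.52 and 0.07. The order by length was thus the same in each tertile. The share called lower among features of up to 300 codons was 55.8% in the highest tertile, 18.4% in the middle and 4.98% in the lowest, where counts are few. Between features of up to 200 and over 1500 codons, over all features with the WT class included, the gap was 1.53, 1.21 and 0.39 in the highest, middle and lowest tertile. The highest tertile held 43 long features and the lowest 75 short ones.

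Whole-cell mRNA of UFSP2-KO was used to ask in which fraction the footprints followed coding length. For each feature, log2 footprint CPM less log2 mRNA CPM was taken, library a against mRNA library a and b against b. The fractions share the mRNA library of their letter, so their values are shown side by side without a test. Outside the WT membrane class, cytosol footprints relative to mRNA fell steadily with length, from a median of 1.33 and 1.53 (libraries a and b) at up to 100 codons to 0.83 and 0.85 at 301 to 500 and 0.24 and 0.01 over 2500. Membrane footprints relative to mRNA stayed in a narrow range, with 0.47 and 0.51 at up to 100 codons, 0.64 and 0.55 at 301 to 500, and 0.71 and 0.57 over 2500. Relative to mRNA, the length trend was thus found mostly in the cytosol values, whereas on CPM alone it was the membrane libraries that differed between long and short features. Whether the mRNA counts cover only coding sequence is not given in the sources used here, and a dependence of the mRNA counts on length would move both fractions alike. These values therefore show a difference between the fractions and do not settle in which fraction the trend lay.

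**Figure D3:**
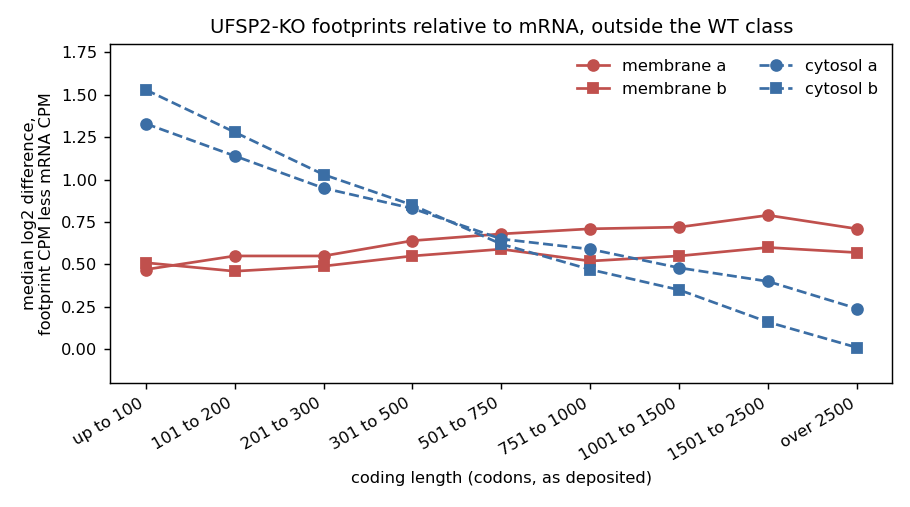
Median log2 footprint CPM less log2 mRNA CPM in UFSP2-KO (y axis) by coding length in codons (x axis), outside the WT membrane class. Red solid lines are membrane libraries a and b and blue dashed lines cytosol libraries a and b; the cytosol medians fall from 1.33 and 1.53 to 0.24 and 0.01, while the membrane medians stay between 0.46 and 0.79.

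The WT membrane class, called on the WT ratio, served as a reading of the UFSP2-KO fractions. The merging, filter, scaling and spread behind it used all 12 libraries, those of UFSP2-KO included, so it is not fully independent of them. In UFSP2-KO 2424 of its 2535 features (95.6%) were called higher at the membrane, 0 were called lower and 111 were not called, by edgeR, where 24.8% of all features were called higher. Of the other 8530 features, 317 (3.72%) were called higher. The median log2 ratio of the class was 5.17 in UFSP2-KO, or 36.1-fold, and that of the other features was -0.22. Per pairing of libraries, on log2 CPM with a prior count of 2, the class median was 3.97 and 3.98 against cytosol a and 4.17 and 4.2 against cytosol b, so it moved with the cytosol library and hardly with the membrane library. For the mRNA of the class, 18.1 and 19.8 CPM per 1000 codons was the median in UFSP2-KO libraries a and b. For the other features it was 28.2 and 30.7. This measure fell with length among the other features, and the sets were not matched for length. Relative to mRNA, the class had a median log2 of 2.3 and 2.27 in membrane libraries a and b and -1.7 and -2.16 in cytosol libraries a and b. For other features it was 0.64 and 0.54 at the membrane and 0.79 and 0.77 in the cytosol, medians pooled over lengths that differed in opposite directions. For the features lower by over 2-fold in WT it was 0.18 and 0.02 at the membrane and 0.98 and 1.02 in the cytosol.

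As a share of counts over tested features, the WT membrane class took 29.8% and 31% of UFSP2-KO membrane libraries a and b and 2.11% and 1.71% of cytosol libraries a and b. The fractions did not overlap, with means of 30.4% ± 0.822 and 1.91% ± 0.283 (SD, n = 2 each) and a ratio of mean shares of 15.9. The 10 features of the class with most WT membrane footprints took 3.04% and 3.22% at the membrane and 0.0312% and 0.012% in the cytosol. Short coding sequences of up to 200 codons, 1762 features, showed the opposite: 21% and 19.1% at the membrane and 38.6% and 36.1% in the cytosol. The 615 features over 1500 codons took 5.85% and 6.06% at the membrane and 3.13% and 3.09% in the cytosol. Shares within a library divide the same total, so the large membrane share of the class lowers what is left for other features there. For each of these sets the exact two-sided permutation p was 0.33, the smallest for 2 against 2. Exact binomial 95% intervals, which cover counting error only, were narrow, for example 29.78% to 29.91% for the class in membrane library a. Reads shared by isoforms count in several features, so these are shares of summed counts and not of reads.

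**Figure D4:**
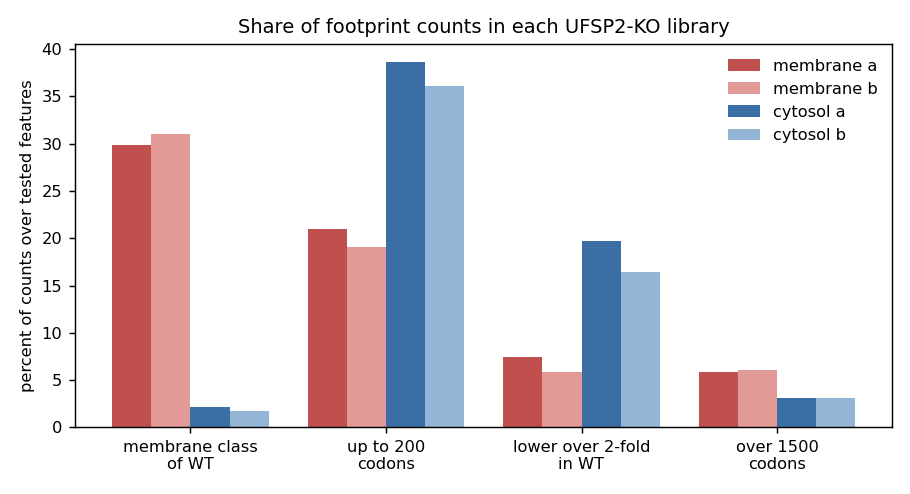
Percent of counts over tested features (y axis) in the 4 UFSP2-KO footprint libraries (bars, 1 per library) for 4 sets of features (x axis). The membrane class of WT takes 29.8% and 31% at the membrane and 2.11% and 1.71% in the cytosol, while features of up to 200 codons take more of the cytosol, 38.6% and 36.1%.

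The depleted side was also read from WT. Of the 547 features lower at the membrane by over 2-fold in WT (4.94% of those tested), 316 (57.8%) were called lower in UFSP2-KO, where 12.2% of all features were, and their median log2 ratio was -1.05. These 547 features took 7.39% and 5.89% of the UFSP2-KO membrane libraries and 19.7% and 16.4% of its cytosol libraries. Part of this difference follows from the large membrane share of the WT membrane class. The median mRNA of the 547 features was 68.2 and 67.1 CPM per 1000 codons in UFSP2-KO libraries a and b. Outside the WT class this measure fell with length. It was 171 and 167 at up to 100 codons, 85 and 89.4 at 101 to 200, and 9.15 and 11.8 over 2500. The 547 features were not compared with others of their length. Between UFSP2-KO and WT, 810 features were called lower in both lines, 60.2% of the UFSP2-KO lower calls and 60% of the WT lower calls. Of the features called in both lines, 0 had opposite directions (edgeR, with 25.3% of tested features called higher and 12.2% lower in WT). Of the 699 features lower by over 2-fold in UFSP2-KO, 686 lay below 0 in WT, with a median of -0.93, and 644 lay below 0 in UFM1-KO, with a median of -0.65. Since the 699 were picked for their low ratio in UFSP2-KO, these medians are no comparison of the lines.

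Step by step along the WT ratio, the UFSP2-KO ratio followed. The 315 features with a WT log2 ratio of 1 to 2 had a median of 1.26 in UFSP2-KO and 216 (68.6%) were called higher. At 2 to 4 the UFSP2-KO median was 3.36 with 421 of 459 (91.7%) called higher, and at 4 to 6 it was 5.15 with 816 of 824 (99%). The 214 features over 8 in WT had a median of 6.77, and these were picked for high WT values. The test of the change itself called 1 feature (0.00904% of those tested) against WT and 4 (0.0362%) against UFM1-KO by edgeR. An unadjusted edgeR p under 0.05 was found for 487 and 742 of the 11065 features. With no change in any feature, a share of 0.05 of them would be expected there. The contrasts share the UFSP2-KO libraries.

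**Figure D5:**
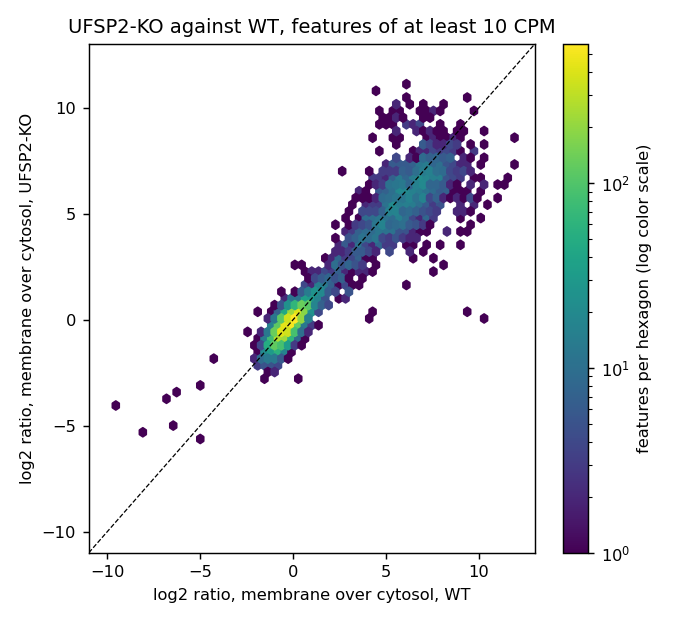
Log2 ratio of membrane over cytosol footprints in UFSP2-KO (y axis) against WT (x axis) for features of at least 10 CPM, as hexagons colored by the number of features on a log color scale; the dashed line marks equal ratios. Most features lie near the line, and the 315 features with a WT ratio of 1 to 2 have a UFSP2-KO median of 1.26.

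The features with a changed ratio differed in which fraction moved, and were named after their values were seen. ENST00000301244.10, with 232 codons, was called higher at the UFSP2-KO membrane, with a log2 ratio of 2.24 (SE 0.5, edgeR adjusted p = 6.61e-04), on 28 and 33 membrane counts and 8 and 5 cytosol counts. Its membrane libraries held 15.9 and 13.1 CPM in UFSP2-KO against 816 and 780 CPM in WT. Its cytosol libraries held 7.1 and 1.47 CPM against 8.99 and 3.22 CPM, on few counts in both lines. The lines thus differed mainly at the membrane. Its mRNA was 2.28 and 2.72 CPM in UFSP2-KO, against 48.2 and 47.3 CPM in WT. Its ratio fell by 5.2 (SE 0.8) against WT (edgeR adjusted p = 0.00791). This call was lost when either UFSP2-KO cytosol library a (-4.19) or WT cytosol library b (-4.22) was left out. ENST00000366923.6, with 1492 codons, had 400 and 446 CPM in the UFSP2-KO membrane libraries against 66.5 and 94.3 CPM in the cytosol libraries. In UFM1-KO the membrane libraries held 351 and 383 CPM and the cytosol libraries 232 and 291. The lines differed mainly in the cytosol, and the log2 ratio was 2.36 in UFSP2-KO and 0.48 in UFM1-KO, a change of 1.88 (SE 0.31, edgeR adjusted p = 0.0106). Its mRNA level was 83.6 and 97.9 CPM in UFSP2-KO, below the 149 and 120 CPM of UFM1-KO. ENST00000602269.1, with 603 codons, showed the reverse in the cytosol, with 304 and 194 CPM in UFSP2-KO against 76.1 and 40.3 CPM in UFM1-KO. Its membrane libraries held 55.1 and 55.7 CPM in the former line and 65.8 and 57.4 CPM in the latter. Its log2 ratio was -2.15 in UFSP2-KO and 0.11 in UFM1-KO, a change of -2.27 (SE 0.38, edgeR adjusted p = 0.0106). Against WT neither change was called (1.52, SE 0.31, and -1.05, SE 0.37; edgeR adjusted p = 0.154 and 1). Both calls against UFM1-KO ended without UFM1-KO membrane library a, without UFSP2-KO membrane library b and without UFSP2-KO cytosol library a (1.68 to 1.82 and -2.27 to -1.93). The call of ENST00000366923.6 also ended without UFM1-KO membrane library b (1.95), and that of ENST00000602269.1 without UFSP2-KO membrane library a (-2.25).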

How the data were processed

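The deposited tables hold raw counts per versioned Ensembl transcript, whole numbers with no header, and a length that was read as coding length in codons (it is the same in every footprint library, is 1 larger for mRNA and lies below 0 for 110 entries). Per the submitters' processing notes, the tools included TopHat2 2.1.1 and the build was GRCh38. The counting program and annotation: not given in the sources used here. Of 26679 entries, 21223 with a count became 14377 features after merging identical counts. Counts were fitted in R 4.3.3 with edgeR 4.0.16: filterByExpr with a minimum count of 10, TMM scaling, 1 coefficient per group over 12 libraries in 6 groups, and the quasi-likelihood test. SE came from the F statistic. The features of lines and fractions were compared with contrasts of this model, and the procedure was tested on simulated data. mRNA was matched by transcript ID without version and by length (25629 entries), and features with at least 20 mRNA counts over both UFSP2-KO libraries were used, with 0.1 CPM added. mRNA CPM uses library totals. Named transcripts are the 2 highest and 2 lowest with an adjusted p under 0.05, at least 20 counts in the lower fraction and no overlap of fractions, plus called changes of the ratio. The planned gene lists were not used, since IDs could not be paired with names. Members, classes and length groups were chosen with earlier results of these data known. DESeq2 1.42.0, other scalings, filters and merging, a letter block and leaving out each library were alternatives.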

Additional observations from a re-analysis of the deposited data

Results flagged for a closer look

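The test of the change in membrane-to-cytosol ratio between lines singled out ENST00000301244.10, whose log2 ratio was changed by -5.2 in UFSP2-KO relative to WT and by -5.72 relative to UFM1-KO. Between the knockouts it also singled out ENST00000602269.1 (-2.27), ENST00000366923.6 (1.88) and a further feature of 182 codons (-4.08). That last feature held 12 and 3 membrane counts and 165 and 366 cytosol counts in UFSP2-KO, and 89 and 2 membrane counts in UFM1-KO. Without UFM1-KO membrane library a its change was -0.77, and its call also ended with DESeq2 (-3.62), RLE factors (-4.05), scaling to library size (-3.99), a minimum count of 50 (-4.11), and without UFSP2-KO membrane library b (-3.15) or cytosol library a (-3.86). The change of ENST00000301244.10 relative to UFM1-KO was not called without UFSP2-KO cytosol library a (-4.72) and was called under the other 15 alternatives run (-7.06 to -5.3). No cause was tested.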

How the results depend on the processing

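The 4086 calls of membrane against cytosol stayed within 1.5 times under 9 other settings (3211 to 5714) and without each library (3215 to 3982). The 4 named transcripts kept direction and call in all 13 alternatives. The median log2 ratio of the WT membrane class ranged from 4.97 to 5.5, and alternatives for gene lists were not run. The long-less-short gap, a measure added after seeing the data, was 1.33 over all features, and 1.24 to 1.39 under the other settings of the fit and without each library. The count of changed ratios against WT was 1, against 7 without a filter, 2 with DESeq2, 6 with the letter as a replicate block and 0 to 9 without 1 library (0 without UFSP2-KO cytosol a or WT cytosol b, 4 without UFSP2-KO cytosol b, 9 without WT cytosol a). Against UFM1-KO it was 4, with 9 under the replicate block and 0 to 13 without 1 library (0 without UFSP2-KO cytosol a, 1 without UFSP2-KO membrane b or UFM1-KO membrane a, 13 without UFM1-KO cytosol b). The cause was not tested. The letters share no stated source: deviations of UFSP2-KO membrane and cytosol libraries of a letter correlated at r = 0.06 across 7797 features, and over all 15 pairs of groups r was 0.05 to 0.33. It was 0.33 and 0.22 between UFSP2-KO cytosol and the cytosol of WT and UFM1-KO, and 0.16 and 0.15 between UFSP2-KO membrane and the membrane of WT and UFM1-KO. With the block 4441 features were called in UFSP2-KO, 4085 of them in both fits. A lone library in a group was assumed to vary like the other groups. Low cytosol counts limit the size of high ratios.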
